A study of Mus musculus with 27 samples.

Results

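The 10 arrays described here held 7 cerebellar tumours of Olig2-tva-cre:SmoM2 mice and 3 of Tlx3-cre:SmoM2 mice, chosen by these names in the sample titles out of 27 arrays in all. Every tumour carried SmoM2, an activated form of the Hedgehog transducer Smoothened, switched on by the cre recombinase of the line named, and the question was how tumours started through the Olig2 driver differ in gene expression from tumours started through the Tlx3 driver. The other arrays, used for the spread and for context, held 6 tumours of hGFAP-cre:SmoM2, 3 of Math1-cre:SmoM2 and 2 of Ptc1+/- mice, and 6 tumour-free cerebellar samples of Ptc1+/-, Mxi1-cre:SmoM2, hGFAP-cre:SmoM2 and Olig2-tva-cre:SmoM2 mice. RNA of tumour tissue was hybridised to Affymetrix mouse arrays, and the deposited values are MAS5 signals, a linear measure of the brightness of each probe set. Each array was rescaled to a common trimmed mean, low signals were raised to a floor of 10.3 (3.37 on the log2 scale), and all levels below are log2 signals. Age, strain, sex and the cells in which each driver had acted are not stated in the labels. No animal is named for any tumour, although the titles number them as biological replicates, so a p-value here reflects only how far these samples spread, and the 7 and 3 arrays limit the precision.

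Hedgehog signalling drives the proliferation of cerebellar granule neuron precursors, the cells of the external granule layer that Atoh1 (Math1) specifies. When the pathway cannot be switched off, as with activated Smoothened, precursors keep dividing, Gli transcription factors stay active and medulloblastoma can arise. Olig2 is a transcription factor of oligodendrocyte and other neural progenitors, and Tlx3 is a homeobox factor of hindbrain neurons.

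Before rescaling, the trimmed mean signal of the Olig2 arrays was 153, 205, 66.3, 81.0, 75.5, 77.9 and 42.6, against 169, 206 and 179 on the Tlx3 arrays. The first 2 Olig2 arrays were thus about as bright as the Tlx3 arrays, and the other 5, all under 85, had no Tlx3 array of like brightness. Olig2 arrays averaged 100.3 ± 57.5 (SD, n = 7), against a mean of 184.7 ± 19.1 (SD, n = 3) over Tlx3 arrays, with p = 0.075 in an exact permutation test over 120 splits (two-sided, smallest possible p 0.00833). Log2 ratios of 3' to 5' control probe sets of Gapdh and Actb, which rise when RNA is degraded, ran from -0.15 to 1.78 on Olig2 arrays and from 0.04 to 0.44 on Tlx3 arrays (exact permutation p = 0.833), with the values of 1.72 and 1.78 on Olig2 arrays 3 and 4. Arrays correlated with each other at a median r of 0.885 among Olig2 tumours and 0.961 among Tlx3 tumours over all genes, and the median SD of a gene was 0.51 in Olig2 tumours and 0.26 in Tlx3 tumours. Xist exceeded the Y-linked Eif2s3y on 4 of the 7 Olig2 arrays and 2 of the 3 Tlx3 arrays. Fits with brightness or the 3' to 5' ratio as a covariate are given below. The part of either as a cause of the results was not tested, and each difference was therefore also computed from the 2 bright Olig2 arrays alone.

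**Figure D1:**
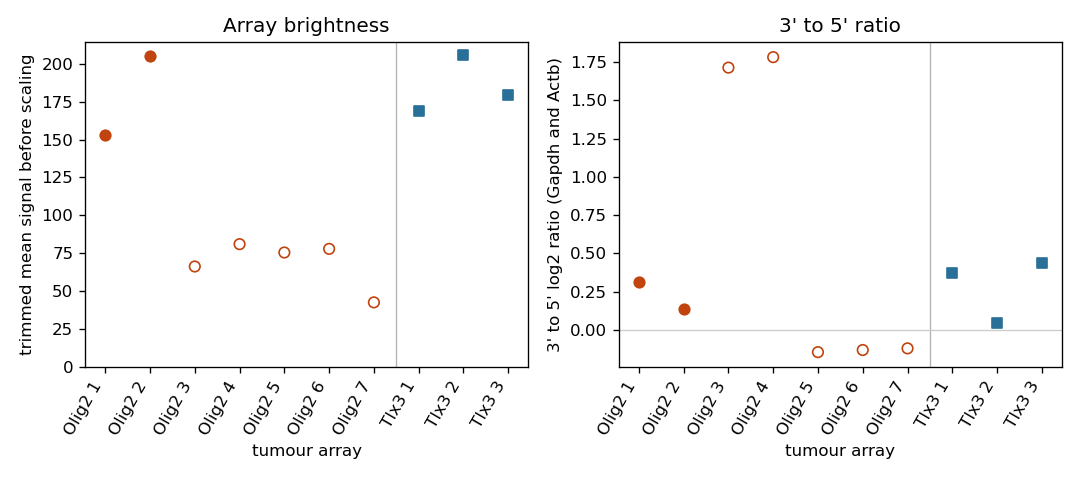
Trimmed mean signal before rescaling (left) and mean 3' to 5' log2 ratio of the Gapdh and Actb control probe sets (right) for each Olig2 and Tlx3 tumour array. The 5 Olig2 arrays drawn as open circles lie under 85, while all 3 Tlx3 arrays lie between 169 and 206, and 2 Olig2 arrays stand above the others in the 3' to 5' ratio.

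The genes of the drivers, of the lineage and of the pathway did not pass the test between the groups. Olig2 had signals from 6.41 to 8.75 in Olig2 tumours, with a median of 7.71, against 7.49, 7.57 and 7.44 in Tlx3 tumours (difference 0.14, SE 0.43, adjusted p = 0.908). For Tlx3 the range was 6.53 to 8.58 with a median of 6.98 in Olig2 tumours, against 6.72, 6.93 and 7.08 in Tlx3 tumours (0.34, SE 0.50, adjusted p = 0.8). Neither driver gene was therefore separated by the tumour's own driver, and the groups overlapped for both. Atoh1 ranged from 8.32 to 11.35 in Olig2 tumours and stood at 9.54, 9.85 and 9.99 in Tlx3 tumours (0.30, 95% confidence interval -0.68 to 1.28), and Zic1, a zinc finger factor of the granule lineage, from 12.32 to 13.43 against 12.83, 12.53 and 12.70. Both markers of granule neuron precursors were thus well above the floor on every tumour array of either group. Gli1, a direct read-out of Hedgehog signalling, ranged from 7.76 to 9.74 against 9.17, 9.20 and 8.76 (0.11, interval -0.78 to 0.99), and Ptch1, the receptor gene that the pathway induces, from 11.25 to 12.29 against 11.23, 11.06 and 11.51 (0.40, interval -0.15 to 0.95). Smo differed by -0.08 (interval -0.53 to 0.37). The interval of Gli1 reaches 0.99, so these values do not show that pathway output was equal.

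Over all 13527 genes, 27 passed an adjusted p of 0.05 in limma, which is 0.200% of the genes tested. Of these, 7 were higher in Olig2 tumours (0.0517%) and 20 were lower (0.148%), and the median difference over all genes was 0.02. The groups of arrays did not overlap for 26 of the 27, and 23 differed at least 2-fold. Of the 27 genes, 19 had other probe sets, 36 in all, of which 27 had the same sign and 9, in 9 genes, the opposite sign. With the mean of a gene's probe sets, 3 genes were called higher and 4 lower. Non-overlap alone was common, since 348 genes (2.57%) were higher and 323 (2.39%) lower on every Olig2 array than on any Tlx3 array. At an unadjusted p of 0.05, 977 genes (7.22%) were higher and 979 (7.24%) lower. Another 333 genes were at least 2-fold higher and 221 at least 2-fold lower in the group means without passing the test. In these bulk samples, fewer cells of a type and less RNA per cell cannot be told apart.

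**Figure D2:**
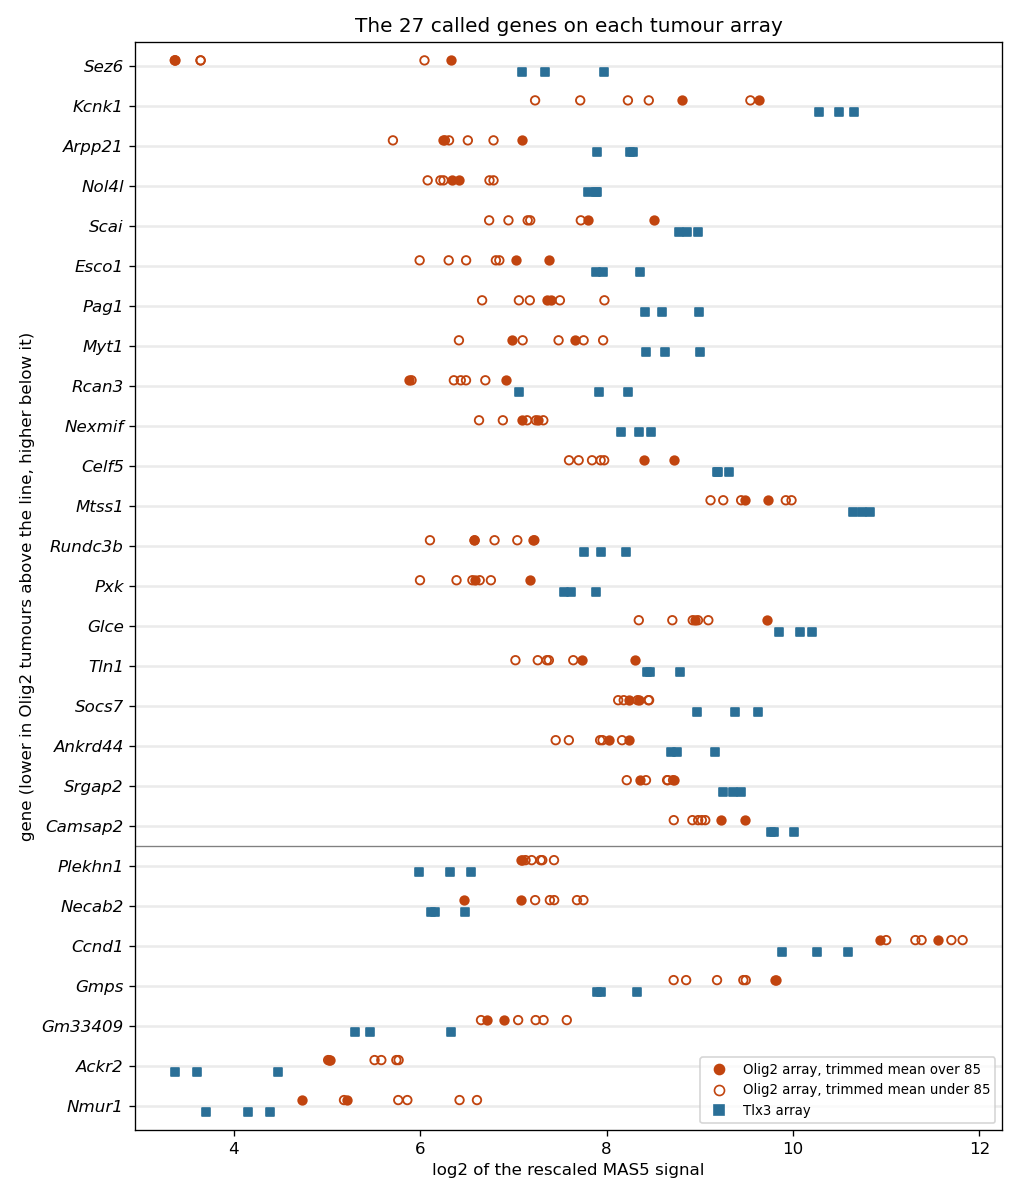
Log2 signal of the 27 called genes on every tumour array, with Olig2 arrays as circles (filled when the trimmed mean was over 85) above the Tlx3 arrays as squares in each row. In the 20 upper rows all Olig2 arrays, filled and open, lie left of every Tlx3 array, and in the 7 lower rows to the right except for Necab2.

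Among the 7 genes that were higher, Ccnd1 had the brightest signal. It encodes cyclin D1, which drives entry into the cell cycle and is a known Hedgehog target in granule neuron precursors. Signals ran from 10.94 to 11.82 in Olig2 tumours, with a median of 11.38, against 10.58, 10.25 and 9.88 in Tlx3 tumours. Every Olig2 array was above every Tlx3 array. The difference was 1.15 (SE 0.21, interval 0.71 to 1.58, adjusted p = 0.0218), and it was 1.01 with the 2 bright Olig2 arrays alone. Other probe sets of Ccnd1 showed 1.30 and 0.56 in the same direction.

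Gmps encodes the synthetase that makes guanosine monophosphate, the last step of guanine nucleotide synthesis. Its signals ran from 8.72 to 9.82 in Olig2 tumours, with a median of 9.47, against 7.89, 7.93 and 8.32 in Tlx3 tumours. The groups were clearly apart, and the bright Olig2 arrays stood among the highest. The difference was 1.28 (SE 0.23, adjusted p = 0.0175), and with the bright Olig2 arrays alone it was 1.76. The other probe sets of Gmps differed far less, by 0.17 and by -0.24, so the call rests on a single probe set of the gene.

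Both receptor genes among the higher genes were dim. Nmur1, a receptor for the neuropeptide neuromedin U, ran from 4.73 to 6.61 in Olig2 tumours, with a median of 5.76, against 3.70, 4.39 and 4.15 in Tlx3 tumours (difference 1.60, SE 0.34, adjusted p = 0.0386), and the bright arrays gave 0.89. Ackr2, an atypical receptor that takes up and degrades inflammatory chemokines, ran from 5.01 to 5.77 with a median of 5.51, against 3.37, 4.47 and 3.60. Its difference was at least 1.57 (SE 0.34, adjusted p = 0.0401), since 1 Tlx3 array was at the floor, but its other probe set read 0.29. For both genes the lowest Olig2 array was above the highest Tlx3 array, but at levels close to the floor.

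The remaining higher genes were Gm33409, Necab2 and Plekhn1. Gm33409, a predicted gene without a known function, ran from 6.65 to 7.57 in Olig2 tumours and stood at 5.30, 5.46 and 6.33 in Tlx3 tumours (1.37, SE 0.27, adjusted p = 0.0337). Necab2, a neuronal calcium-binding protein, ran from 6.47 to 7.75 with a median of 7.39, against 6.12, 6.16 and 6.48 (1.04, SE 0.22, adjusted p = 0.036), and the bright arrays gave 0.52. It was the called gene whose groups touched, because its lowest Olig2 array, a bright one, was level with the highest Tlx3 array. Plekhn1, a protein with a pleckstrin homology domain, was nearly constant in Olig2 tumours, from 7.08 to 7.43, against 6.54, 5.99 and 6.32 in Tlx3 tumours (0.94, SE 0.20, adjusted p = 0.0386). Without rescaling, which moved the median of all genes by -1.02, the differences of Plekhn1 and Necab2 turned to -0.12 and -0.018, so that relative to that median both were still higher, by 0.90 and 1.00.

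The 20 lower genes are given by what their products do, an order made after the genes were known. Kcnk1, a potassium channel of the tandem-pore family that granule neurons express, had the largest drop among genes with no array at the floor. Its signals ran from 7.23 to 9.64 in Olig2 tumours, with a median of 8.45, against 10.28, 10.50 and 10.65 in Tlx3 tumours. The Olig2 arrays were widely spread and all lay below the tightly grouped Tlx3 arrays. The difference was -1.96 (SE 0.37, interval -2.72 to -1.20, adjusted p = 0.0218). With the bright Olig2 arrays it was -1.25, against -2.24 with the dim ones, and another probe set showed -1.17.

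Promoter windows are shown for Gmps and Kcnk1, the higher gene with the largest difference on the bright arrays and the lower gene with the largest difference away from the floor. Each is the 250 bases before the gene's start on the plus strand of GRCm38.p6, from RefSeq, at chr3:63975893-63976142 for Gmps and chr8:125994852-125995101 for Kcnk1. Of the 27 called genes, 20 had an entry in that table. Capitals mark matches, on either strand, to any of the motifs spelled out after the sequences.
Gmps: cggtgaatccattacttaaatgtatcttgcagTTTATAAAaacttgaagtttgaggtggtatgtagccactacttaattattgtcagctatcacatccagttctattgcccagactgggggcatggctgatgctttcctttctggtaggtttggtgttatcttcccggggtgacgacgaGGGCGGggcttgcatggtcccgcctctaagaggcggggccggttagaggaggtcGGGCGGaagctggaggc
Kcnk1: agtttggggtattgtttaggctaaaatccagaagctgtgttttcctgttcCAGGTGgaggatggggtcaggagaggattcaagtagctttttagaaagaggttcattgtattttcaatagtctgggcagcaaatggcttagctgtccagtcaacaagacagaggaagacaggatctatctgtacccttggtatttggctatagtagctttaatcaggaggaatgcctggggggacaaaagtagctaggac

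The Gmps window held 2 matches to GGGCGG, the letters of a GC box, and 2 overlapping matches to TATAAA, 1 on each strand, with a GC content of 51.2%. Among 32536 windows of the same length, 33.0% held GGGCGG and 12.3% held TATAAA. The Kcnk1 window held 1 match to CAGNTG, the E-box letters that many neuronal factors of the basic helix-loop-helix family bind, with a GC content of 44.4%, and 44.8% of all windows held one. Neither window matched the Gli letters GACCACCCA, which 0.218% of the windows held. The letters CCAAT, present in 33.8% of the windows, and the E-box CACGTG, present in 6.04%, also had no match. A match describes letters and not a bound site.

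Sez6, a neuronal membrane protein linked to dendrite branching and seizures, showed the largest drop. It was at the floor in 3 Olig2 tumours and ran up to 6.33, with a median of 3.64, against 7.33, 7.97 and 7.09 in Tlx3 tumours, so that it fell by at least 3.21 (SE 0.69, adjusted p = 0.0401). Its other probe sets did not follow, with -0.39 and 0.24. Quantile normalization and a lower floor each selected another probe set for the gene, and the difference then read 0.10 and 0.24, so the drop of Sez6 belongs to 1 probe set.

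Further lower genes have roles in the nucleus or in RNA. Arpp21, a cAMP-regulated RNA-binding phosphoprotein of neurons, ran from 5.71 to 7.09 in Olig2 tumours, with a median of 6.31, against 8.25, 8.28 and 7.90 in Tlx3 tumours (-1.73, SE 0.33, adjusted p = 0.0218), and all 4 of its other probe sets were below 0, from -2.23 to -0.06. Myt1, a zinc finger factor of neural progenitors, ran from 6.41 to 7.96 with a median of 7.48, against 8.628, 8.424 and 9.004 (-1.35, SE 0.27, adjusted p = 0.0337). The groups stood apart for both, and for Myt1 the bright arrays alone gave nearly the same value, -1.36. Celf5, a neuronal splicing regulator of the CELF family, ran from 7.60 to 8.72 against 9.20, 9.31 and 9.18 (-1.21, SE 0.24, adjusted p = 0.0337), and the bright arrays gave -0.67. Scai, a cofactor that represses SRF-dependent transcription, fell by 1.44 (adjusted p = 0.036), and its bright arrays gave -0.72. Esco1, an acetyltransferase of the cohesin ring, fell by 1.37 (adjusted p = 0.036), although its other probe set read 0.04 and the bright arrays gave -0.86.

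The smallest adjusted p values belonged to Pag1, Nol4l and Nexmif. Pag1 encodes a membrane adaptor that recruits the Src-inhibiting kinase Csk. It ran from 6.66 to 7.98 in Olig2 tumours, with a median of 7.36, against 8.41, 8.59 and 8.99 in Tlx3 tumours (-1.36, SE 0.21, adjusted p = 0.00634). Nol4l ran from 6.08 to 6.79 with a median of 6.34, against 7.80, 7.89 and 7.89 (-1.46, SE 0.24, adjusted p = 0.00875), and Nexmif, an X-linked gene of neurite extension and neuronal migration, from 6.63 to 7.32 with a median of 7.15, against 8.48, 8.15 and 8.35 (-1.24, SE 0.21, adjusted p = 0.00875). The groups did not overlap for any of the 3 genes, and the bright arrays alone gave -1.28, -1.48 and -1.15. Another probe set of Pag1 read 0.76 in the opposite direction, whereas the other probe sets of Nol4l (-0.48) and Nexmif (-0.67 to -0.14) were below 0.

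Genes of cell shape and adhesion made up a further group of the lower genes. Mtss1, an actin-binding protein that bends membranes and has been described as Hedgehog-responsive, ran from 9.11 to 9.98 in Olig2 tumours, with a median of 9.49, against 10.64, 10.83 and 10.74 in Tlx3 tumours (-1.17, SE 0.23, adjusted p = 0.0296). Of its 5 other probe sets, 4 were below 0 and 1 read 0.18. Tln1, the talin that couples integrins to actin, fell by 1.03 (adjusted p = 0.0426), with -0.54 on the bright arrays and 0.28 on another probe set. Srgap2, which shapes the leading process and spines of neurons, fell by 0.81 (adjusted p = 0.0386) and Camsap2, which caps the minus ends of microtubules, fell by 0.80 (adjusted p = 0.0386, -0.50 on the bright arrays), the smallest change called. Both other probe sets of each of these genes were below 0, and the groups did not overlap for any of the genes of this paragraph.

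The rest of the lower genes act in signalling or have little described function. Rcan3, a regulator of the phosphatase calcineurin, ran from 5.88 to 6.92 in Olig2 tumours against 7.06, 8.23 and 7.91 in Tlx3 tumours (-1.35, SE 0.29, adjusted p = 0.0401), so that the lowest Tlx3 array came near the Olig2 range. Socs7, a suppressor of cytokine signalling, was almost constant in Olig2 tumours, from 8.12 to 8.46, against 9.62, 8.97 and 9.38 (-1.02, SE 0.20, adjusted p = 0.0264). Pxk, a kinase-like protein with a PX domain, fell by 1.097 (adjusted p = 0.0191) and Rundc3b, a protein with a RUN domain, by 1.17 (adjusted p = 0.0401). Glce, the epimerase that modifies glucuronic acid in heparan sulfate, fell by 1.08 (adjusted p = 0.0447), and Ankrd44, a regulatory subunit of a protein phosphatase, fell by 0.96 (adjusted p = 0.0359). Other probe sets opposed 3 of these genes, with 0.25 for Glce, 0.65 for Ankrd44 and 0.53 for Socs7, whose further probe set read -0.60. The 6 genes had bright-array differences from -1.33 (Rcan3) to -0.71 (Glce).

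With the bright Olig2 arrays alone, the 20 lower genes had a median difference of -1.05 and the 7 higher genes one of 1.01, against -1.31 and 1.246 with the dim arrays. Both bright arrays lay below every Tlx3 array for all 20 lower genes and above every Tlx3 array for 6 of the 7 higher genes. That position follows from the non-overlap of the full groups and is no separate check. The size was smaller on the bright than on the dim arrays for 17 of the 20 lower and 6 of the 7 higher genes, Gmps being the exception among the higher genes. When the arrays under 85 were left out, limma called 3 genes higher and 1 lower, namely Gmps, Islr2, Mdk and Pag1. Mdk, the heparin-binding growth factor midkine, had a difference of 1.79 with all arrays (adjusted p = 0.0559) and 2.15 with the bright ones. Islr2, a neuronal membrane protein of axon outgrowth, ran from 3.37 to 8.41 in Olig2 tumours against 3.37, 4.18 and 5.24 in Tlx3 tumours (1.89, adjusted p = 0.28).

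The number of calls also rested on single Tlx3 tumours. Without the first Tlx3 array 0 genes were higher and 1 lower (Pag1), without the second 0 and 0, and without the third 3 and 11. At an unadjusted p of 0.05, 596 genes were higher and 590 lower without the second Tlx3 array. Leaving out the second Olig2 array gave 68 higher and 147 lower genes, the fourth 2 and 10, the fifth 3 and 7, and the seventh 2 and 6. In each of these fits all 27 genes kept the sign of their difference. For the 26 genes whose groups did not overlap, leaving out an array could not change that sign. When the spread was taken from the 10 arrays alone, limma called 0 genes in either direction (808 higher and 683 lower at an unadjusted p of 0.05), and from the 19 SmoM2 arrays it called 0 higher and 3 lower (Nexmif, Nol4l and Pag1).

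Levels in the other groups place these genes. The comparisons share arrays with the one described above, so they add no separate evidence. In the same model, limma called 0.0148% of genes higher and 0.0148% lower in Olig2 than in Math1 tumours, and 1.07% higher and 1.91% lower in Olig2 than in hGFAP tumours. In hGFAP against Tlx3 tumours the shares were 0.680% higher and 0.0739% lower. In Math1 against Tlx3 tumours limma called 0 genes in either direction (0.00%), while 446 (3.30%) were higher and 130 (0.961%) lower at an unadjusted p of 0.05. Against tissue without tumour they were 24.7% higher and 25.0% lower for Olig2 tumours, and 19.7% higher and 20.6% lower for Tlx3 tumours. Ccnd1 averaged 11.39 ± 0.33 in Olig2 tumours (SD, n = 7), 10.24 ± 0.35 in Tlx3 (n = 3), 10.26 ± 0.33 in hGFAP (n = 6), 10.64 ± 0.11 in Math1 (n = 3) and 10.77 ± 0.04 in Ptc1+/- tumours (n = 2), and 8.13 ± 0.24 in tissue without tumour (n = 6). It was higher than in hGFAP tumours by 1.13 (adjusted p = 0.00218), and against Math1 tumours the difference was 0.75 (adjusted p = 0.39). Olig2 tumours thus had the highest mean of this cyclin, and Tlx3 tumours were close to hGFAP tumours.

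For both receptor genes and Gmps the Tlx3 group had the lowest mean of all 6 groups, as it had for Gm33409, Necab2 and Plekhn1. Among the 4 SmoM2 groups, Tlx3 tumours had the lowest mean for all 7 higher genes and the highest for all 20 lower genes. Olig2 tumours had the highest mean for 5 of the higher genes and the lowest for all 20 lower genes. The genes were called on these Olig2 and Tlx3 values, so such extremes follow in part from the choice. Ackr2 averaged 5.38 ± 0.35 in Olig2 and 3.81 ± 0.58 in Tlx3 tumours, while its mean was 5.69 in hGFAP, 5.55 in Math1 and 6.06 in Ptc1+/- tumours and 5.28 in tissue without tumour. Nmur1 averaged 5.68 ± 0.69 in Olig2 and 4.08 ± 0.35 in Tlx3 tumours, against 5.68, 5.33 and 5.70 in the other tumour groups and 5.20 without tumour. Olig2 tumours differed from tissue without tumour by 0.10 for Ackr2 and 0.49 for Nmur1 without a call, and Tlx3 tumours by -1.47 (adjusted p = 0.0012) and -1.12 (adjusted p = 0.0115). Gmps averaged 9.33 ± 0.44 in Olig2 and 8.05 ± 0.24 in Tlx3 tumours, 9.23 in hGFAP, 8.65 in Math1 and 8.99 in Ptc1+/- tumours, and 9.84 in tissue without tumour. Of the 7 higher genes, limma called 5 higher in hGFAP than in Tlx3 tumours, and 1 higher in Olig2 than in hGFAP tumours. Of the 20 lower genes, 1 and 8 were called lower in these comparisons. Ackr2, Nmur1 and Gmps were among the 5, at 1.88, 1.59 and 1.18 (adjusted p = 0.0226, 0.0381 and 0.0342). Olig2 minus hGFAP read -0.31, 0.01 and 0.11 for them, without a call. Math1 and Tlx3 tumours were not separated by a call for these genes, with differences, Math1 minus Tlx3, of 1.74 for Ackr2, 1.24 for Nmur1 and 0.60 for Gmps (adjusted p = 0.771 for Ackr2 and 1 for the others).

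Among the lower genes, the level without tumour varied. Kcnk1 averaged 8.52 ± 0.89 in Olig2 and 10.47 ± 0.19 in Tlx3 tumours, and 10.85 ± 0.21 in tissue without tumour (n = 6), from which Olig2 tumours differed by -2.33 (adjusted p = 1.61e-07) and Tlx3 tumours by -0.37 (adjusted p = 0.457). Nexmif showed the other order, with 7.08 ± 0.25 in Olig2 tumours, 8.33 ± 0.17 in Tlx3 tumours and 6.17 ± 0.27 without tumour. It was thus raised over that tissue in both, by 0.91 in Olig2 (adjusted p = 3.55e-05) and 2.15 in Tlx3 tumours (adjusted p = 3.6e-09). Myt1 was raised over tissue without tumour in Tlx3 tumours (1.22, adjusted p = 0.000859), and the difference was -0.13 in Olig2 tumours (adjusted p = 0.667). Pag1 averaged 7.31 in Olig2, 8.66 in Tlx3, 8.04 in hGFAP, 8.04 in Math1 and 7.25 in Ptc1+/- tumours, and 8.28 without tumour.

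**Figure D3:**
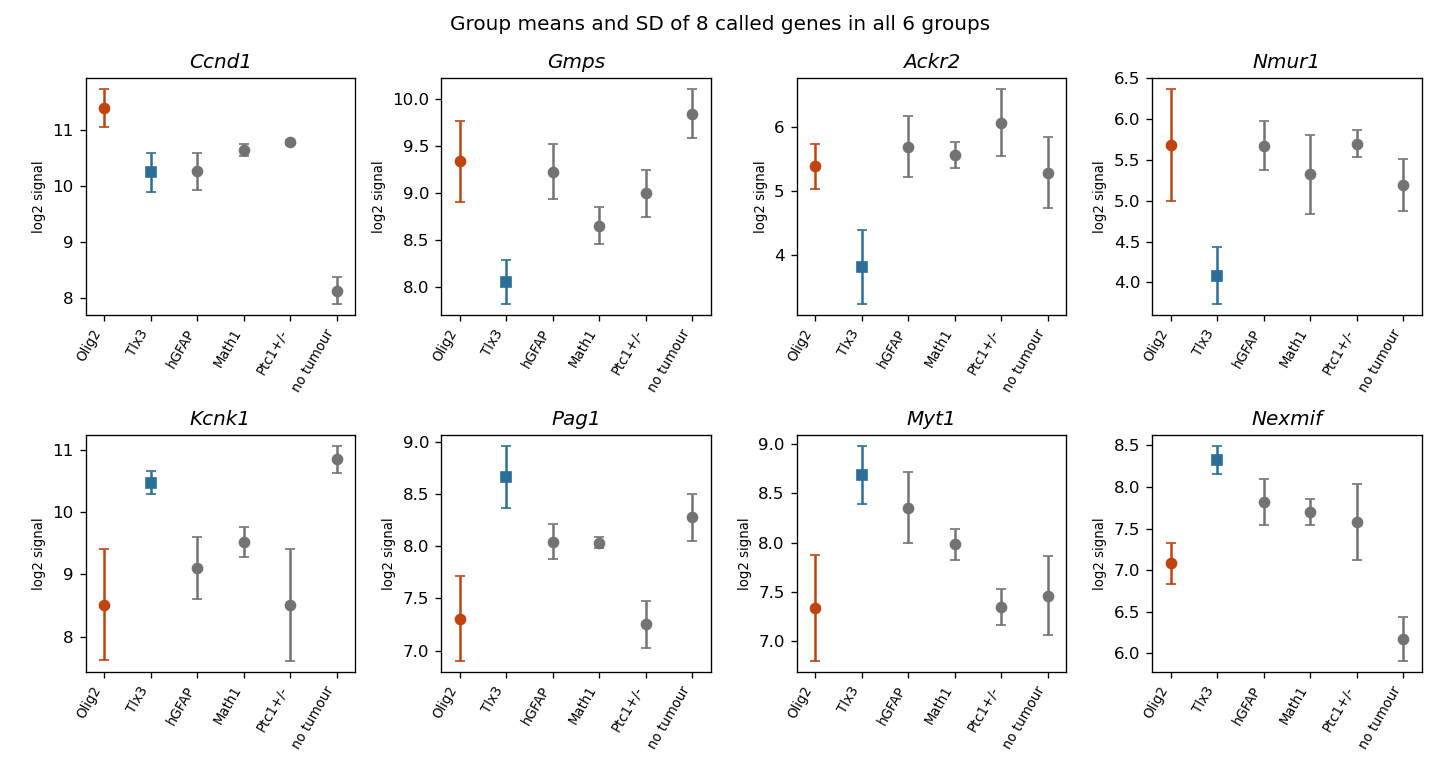
Mean log2 signal with SD in each of the 6 groups for 8 of the called genes (axes do not start at 0; 7 Olig2, 3 Tlx3, 6 hGFAP, 3 Math1 and 2 Ptc1+/- tumours, 6 samples without tumour). Ackr2 and Nmur1 are lowest in Tlx3 tumours, Ccnd1 is highest in Olig2 tumours, and Kcnk1 is near its tissue level in Tlx3 tumours.

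A set of 48 gene lists with 741 genes, of which 629 were measured, was read for pathways, cell types and processes. Of the measured list genes, 2 were called, Ccnd1 and Kcnk1, beside 0.200% of all genes, which says nothing particular about the lists, and 45 lists had no called member. Differences in list members below are therefore values without a call unless a p under the threshold is given. List medians lay above 0 for 28 lists and below 0 for 20, beside the median of 0.02 over all genes. With the bright arrays alone some of these medians had the opposite sign. Among them were choroid plexus (0.19 to -0.21), ependymal (0.27 to -0.26), stress (0.15 to -0.11) and interferon genes (0.12 to -0.11). Astrocyte and Bergmann glia genes (-0.06 to 0.20) and splicing genes (-0.08 to 0.08) turned the other way.

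Hedgehog genes were read as targets and as components. Of 15 listed targets 14 were measured, 1 was called higher (Ccnd1) and 0 lower, 12 lay above 0, and the median was 0.27 (0.33 with the bright arrays). Pdlim3 had a difference of 0.95 (adjusted p = 0.37) and Mycn, a driver of precursor proliferation, one of -0.67 (adjusted p = 0.516), its range of 8.46 to 11.19 in Olig2 tumours including the Tlx3 values of 10.79, 10.92 and 10.83. The pathway components, 16 of 16 measured, had 0 calls and a median of 0.21, from -0.70 for Prkaca, the catalytic kinase subunit that restrains Gli activity, to 1.01 for Evc2, a ciliary protein that transmits Smoothened activity. Evc2 ran from 6.32 to 8.33 in Olig2 tumours against 6.27, 5.97 and 5.99 in Tlx3 tumours (adjusted p = 0.161), without overlap.

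Lists of the granule lineage ran from precursors to mature neurons. Precursor genes, 16 of 19 measured, had 0 calls, a median of -0.31 and differences from -1.19 for Pax6, the paired-box factor of granule precursors and neurons, to 1.41 for Meis2. Meis2 averaged 3.67 in Tlx3 tumours, near the floor, and 1 Olig2 tumour stood at 8.56 against 3.82 to 5.48 in the others. Pax6 ran from 7.98 to 9.84 in Olig2 tumours against 9.72, 10.15 and 9.80 in Tlx3 tumours (adjusted p = 0.148), with 1 Olig2 array inside the Tlx3 range. Genes of migrating granule neurons, 15 of 15 measured, had 0 calls, with 13 below 0 and a median of -0.63 (-0.53 on the bright arrays). Dcx, the doublecortin of migrating neurons, ran from 9.76 to 10.75 against 11.30, 11.34 and 11.01, without overlap but without a call (-0.87, adjusted p = 0.298), and Unc5b, a netrin receptor, read -1.63 (adjusted p = 0.184).

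Mature granule neuron genes had the lowest median of all lists, -0.99. Of 13 measured of 14 listed, 1 was called lower, Kcnk1, and the other 12 had values below 0, with a median on the bright arrays of -0.45. Fat2, a giant cadherin of granule cells, was at the floor in 4 Olig2 tumours and reached 7.56 in another, against 7.06, 7.53 and 6.30 in Tlx3 tumours (fitted difference -2.45, a bound because of the floor, adjusted p = 0.178). Gabra6, the receptor subunit typical of mature granule cells, ran from 4.34 to 9.58 against 8.10, 9.26 and 6.94 (-1.65, adjusted p = 0.352). For both genes some Olig2 tumours were as high as Tlx3 tumours and others far lower. Summed over the list, the linear signal was between 2309 and 7335 in Olig2 tumours and between 5465 and 8114 in Tlx3 tumours, so the groups overlapped.

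Other neuronal lists had medians from -0.87 to -0.03. Purkinje cell genes, 11 of 13 measured, had 0 calls, 10 below 0 and a median of -0.87 (-0.46 on the bright arrays), with summed signals from 739 to 5225 in Olig2 and 2692 to 5811 in Tlx3 tumours. Pcp2, a Purkinje marker, ran from 4.06 to 9.63 in Olig2 tumours against 8.41, 9.79 and 8.29 in Tlx3 tumours (-1.79, adjusted p = 0.294), and no marker of the list was at the floor on all arrays of either group. Synaptic vesicle genes had 0 calls of 15 measured, 13 below 0 and a median of -0.62 (-0.34 on the bright arrays). Snap25, a fusion protein of synaptic vesicles, read -1.14 (adjusted p = 0.192) with all arrays and -0.21 with the bright ones. Channel genes for potassium and calcium had a median of -0.51, transmitter receptors one of -0.20, GABAergic interneuron genes one of -0.07 and neurofilament and outgrowth genes one of -0.03, each with 0 calls. On the bright arrays these medians were, in that order, -0.14, 0.06, 0.36 and -0.48. The neurofilament and outgrowth genes had a mean of -0.42, with 10 of 17 below 0 and 7 above. For 3 of the 17 every Olig2 array was below every Tlx3 array, beside 2.39% of all genes. Summed synaptic signals ran from 3550 to 7935 in Olig2 and from 7058 to 9074 in Tlx3 tumours. The sums of neuronal markers thus overlapped between the groups and reached lower in some Olig2 tumours, and their part in the lower genes was not tested.

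Regional identity genes had fitted differences from -2.33 to 2.67, with 0 calls of 15 measured. Otx1, a homeobox factor of the anterior brain and of the posterior cerebellar lobes, was at the floor in 4 Olig2 tumours and reached 6.56 in 1, against 5.79, 6.97 and 6.15 in Tlx3 tumours (fitted difference -2.33, a bound because of the floor, adjusted p = 0.132). En1, an engrailed factor of the midbrain and cerebellum, ran from 3.37 to 4.59 in Olig2 tumours against 4.83, 6.27 and 5.61 in Tlx3 tumours (-1.79, likewise a bound with 2 Olig2 arrays at the floor, adjusted p = 0.11). Every Olig2 tumour was below every Tlx3 tumour for En1, and 6 of the 7 were for Otx1. Its relative En2 ran from 7.42 to 8.97 against a mean of 8.90 ± 0.11 (SD, n = 3) in Tlx3 tumours (-0.93, adjusted p = 0.166).

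Hox genes of the hindbrain differed among the Olig2 tumours themselves. Hoxb3, which patterns the posterior hindbrain, ran from 3.37 to 11.08 with a median of 5.37, against 3.60, 3.87 and 4.10 in Tlx3 tumours (2.67, SE 1.15, adjusted p = 0.282). Hoxb2 ran from 3.37 to 8.70 with a median of 4.61, against 4.14, 4.60 and 4.60 (1.08, adjusted p = 0.634). A few Olig2 tumours, bright and dim, thus had high signals of these genes that no Tlx3 tumour had, while 1 Olig2 tumour was at the floor for Hoxb3 and 2 were for Hoxb2. Genes of other rhombic lip derivatives, 7 of 14 measured, had a median of 0.65 and 0 calls, with Olig3, a factor of rhombic lip progenitors, at 5.44 to 9.26 against 5.47, 4.62 and 7.78 (1.52, adjusted p = 0.5) and Eomes, a factor of unipolar brush cells, at -0.78.

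**Figure D4:**
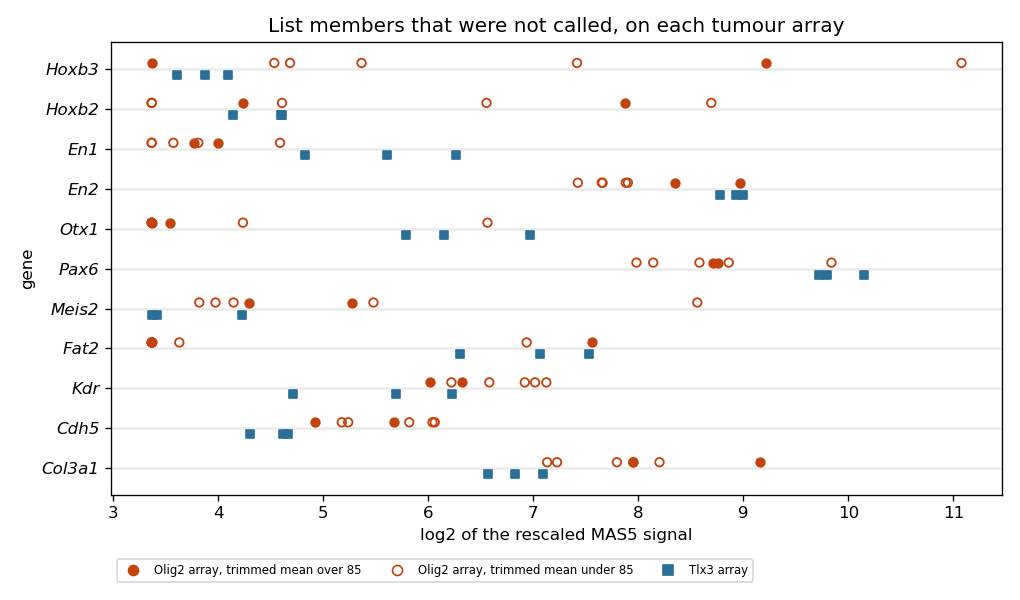
Log2 signal of 11 list genes that were not called, on each Olig2 (circles, filled when the trimmed mean was over 85) and Tlx3 (squares) tumour array. Hoxb3 and Hoxb2 spread from 3.37 to 11.08 and to 8.70 in Olig2 tumours while staying at or under 4.60 in Tlx3 tumours, and En1 lies lower on every Olig2 array.

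Progenitor and glial lists had 0 calls. Neural stem cell genes, 18 of 18 measured, had a median of 0.36, with the matrix protein Tnc at 0.85 (adjusted p = 0.366) and the hyaluronan receptor Cd44 at -1.07 (adjusted p = 0.321). Oligodendrocyte precursor genes had a median of -0.19, and Gpr17, a receptor of committed precursors, ran from 5.13 to 8.44 in Olig2 tumours against 8.24, 7.52 and 8.47 in Tlx3 tumours (-1.14, adjusted p = 0.31). The tumours of the Olig2 driver thus had no called difference in these genes, and the groups overlapped for Gpr17. Myelin genes had a median of -0.19, with Mbp, the myelin basic protein, at -1.73 (adjusted p = 0.21). Astrocyte and Bergmann glia genes had a median of -0.06, with the GABA transporter Slc6a11 at 1.44 (adjusted p = 0.198) and the water channel Aqp4 at -1.20. Aqp4 ran from 9.26 to 10.37 in Olig2 tumours against 10.80, 10.68 and 10.94 in Tlx3 tumours, without overlap, and its adjusted p of 0.0684 was close to the threshold.

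Signalling lists were mixed, again with 0 calls. Wnt genes, 14 of 19 measured, had a median of 0.10. Wif1, a secreted Wnt inhibitor, ran from 3.37 to 7.67 in Olig2 tumours against 3.58, 3.37 and 3.37 in Tlx3 tumours. Its fitted difference of 2.00 (adjusted p = 0.172) is not exact, with 2 Tlx3 arrays and 1 Olig2 array at the floor. Lgr5, an R-spondin receptor, ran from 6.97 to 7.72 against 8.09, 7.94 and 7.98 (-0.70, adjusted p = 0.0758). BMP genes had a median of -0.02. Bmp5, a BMP ligand, ran from 4.83 to 8.12 against 7.51, 8.02 and 8.35 (-2.05, adjusted p = 0.0891), and the bright arrays gave -0.71. For Bmp5 the groups overlapped. Among IGF and imprinted genes (median 0.17), Igf2, a growth factor that Hedgehog-driven precursors use, ran from 8.283 to 10.004 with a median of 9.03, against 7.36, 7.59 and 7.62, without overlap (1.58, SE 0.50, adjusted p = 0.153). Notch genes had a median of 0.18, from -0.84 for the target Hes5 to 0.50 for Mfng.

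Vascular and matrix genes had medians above that of all genes. Endothelial genes, 10 of 12 measured, had 0 calls, 9 above 0 and a median of 0.63 (0.53 on the bright arrays). Kdr, the main receptor for vascular endothelial growth factor, ran from 6.02 to 7.12 in Olig2 tumours against 4.71, 6.22 and 5.69 in Tlx3 tumours (1.06, adjusted p = 0.188), and Cdh5, the cadherin of endothelial junctions, from 4.92 to 6.06 against 4.31, 4.67 and 4.61 (1.03, adjusted p = 0.148). The groups stood apart for 3 of the 10 endothelial genes, Cdh5 among them, beside 2.57% of all genes, but not for Kdr. Mural, meningeal and matrix genes, 18 of 20 measured, had 17 above 0 and a median of 0.55 (0.69 on the bright arrays). Col3a1, a fibrillar collagen, ran from 7.13 to 9.16 against 6.57, 7.09 and 6.82 (1.09, adjusted p = 0.276), and Rgs5, a pericyte marker, read -0.51. Summed endothelial signals were 573 to 906 in Olig2 and 498 to 594 in Tlx3 tumours, and matrix sums 3352 to 6082 and 2876 to 3595, so both pairs of ranges overlapped.

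Immune, ciliated and blood lists had 0 calls. Microglia and macrophage genes had a median of -0.31, from -0.85 for Cx3cr1, the fractalkine receptor, to 0.65 for the complement gene C1qb. Lymphocyte, antigen presentation and interferon genes had medians of 0.05, 0.25 and 0.12. Choroid plexus genes had a median of 0.19, but Ttr, the transthyretin of choroid plexus epithelium, ran from 3.65 to 13.70 in Olig2 tumours against 12.56, 10.91 and 12.37 in Tlx3 tumours (-1.75, SE 2.63). Some Olig2 tumours thus had almost no signal of this marker. The bright Olig2 arrays differed from Tlx3 tumours by -7.46, whereas the dim ones averaged above the Tlx3 mean. Ependymal genes had a median of 0.27, and of the blood list 2 of 9 genes were measured, at -0.48 for S100a9 and -1.03 for S100a8.

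Of the proliferation genes, Ccnd1 alone was called. DNA replication genes, 25 of 25 measured, had 0 calls, with 22 above 0 and a median of 0.33 (0.55 on the bright arrays). Cdc6, which loads the replicative helicase, ran from 7.14 to 8.34 in Olig2 tumours against 7.32, 7.07 and 6.42 in Tlx3 tumours (0.88, adjusted p = 0.169), and the helicase subunit Mcm3 from 8.92 to 9.92 against 8.77, 8.71 and 8.57, without overlap (0.70, adjusted p = 0.216). Mitosis genes had a median of 0.01 over 25 measured, with the survivin gene Birc5 at 0.84 (adjusted p = 0.234) and the spindle midzone protein Prc1 at -0.43. Mki67, the Ki-67 antigen of cycling cells, ran from 10.22 to 11.29 against 10.49, 10.14 and 10.46 (0.40, adjusted p = 0.604). Among cell cycle inhibitors and D cyclins, with a median of 0.14 over 16 measured, Ccnd1 was the 1 called gene. Myc family genes had a median of 0.18, p53 targets one of -0.04, DNA repair genes one of 0.11 and chromatin regulators one of 0.00.

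The remaining lists concern general cell functions. Ribosomal protein genes, 13 of 18 measured, all had values above 0, with a median of 0.33 that was 0.08 on the bright arrays, and ribosome biogenesis genes had a median of 0.20. Rps27, the lowest of them at 0.04, read -0.028 with quantile normalization and -1.02 without rescaling. Oxidative phosphorylation genes had a median of -0.09, glycolysis and hypoxia genes one of 0.01 and cholesterol synthesis genes one of -0.12. Hk2, the hexokinase that Hedgehog-driven precursors use for glycolysis, ran from 9.311 to 10.9997 in Olig2 tumours against 9.09, 9.23 and 9.66 in Tlx3 tumours (1.07, SE 0.27, adjusted p = 0.0749). Stress genes, splicing genes and immediate early genes had medians of 0.15, -0.08 and 0.23, and the nuclear RNA Neat1 ran from 5.53 to 6.86 against 5.29, 5.06 and 5.07, without overlap (1.15, adjusted p = 0.0845). Eph receptors and ephrins had a median of 0.29, with Epha3 at 1.20 (adjusted p = 0.233) and Ephb1 at -1.15 (adjusted p = 0.0684). Cadherins and Sox factors had medians of -0.01 and 0.20.

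**Figure D5:**
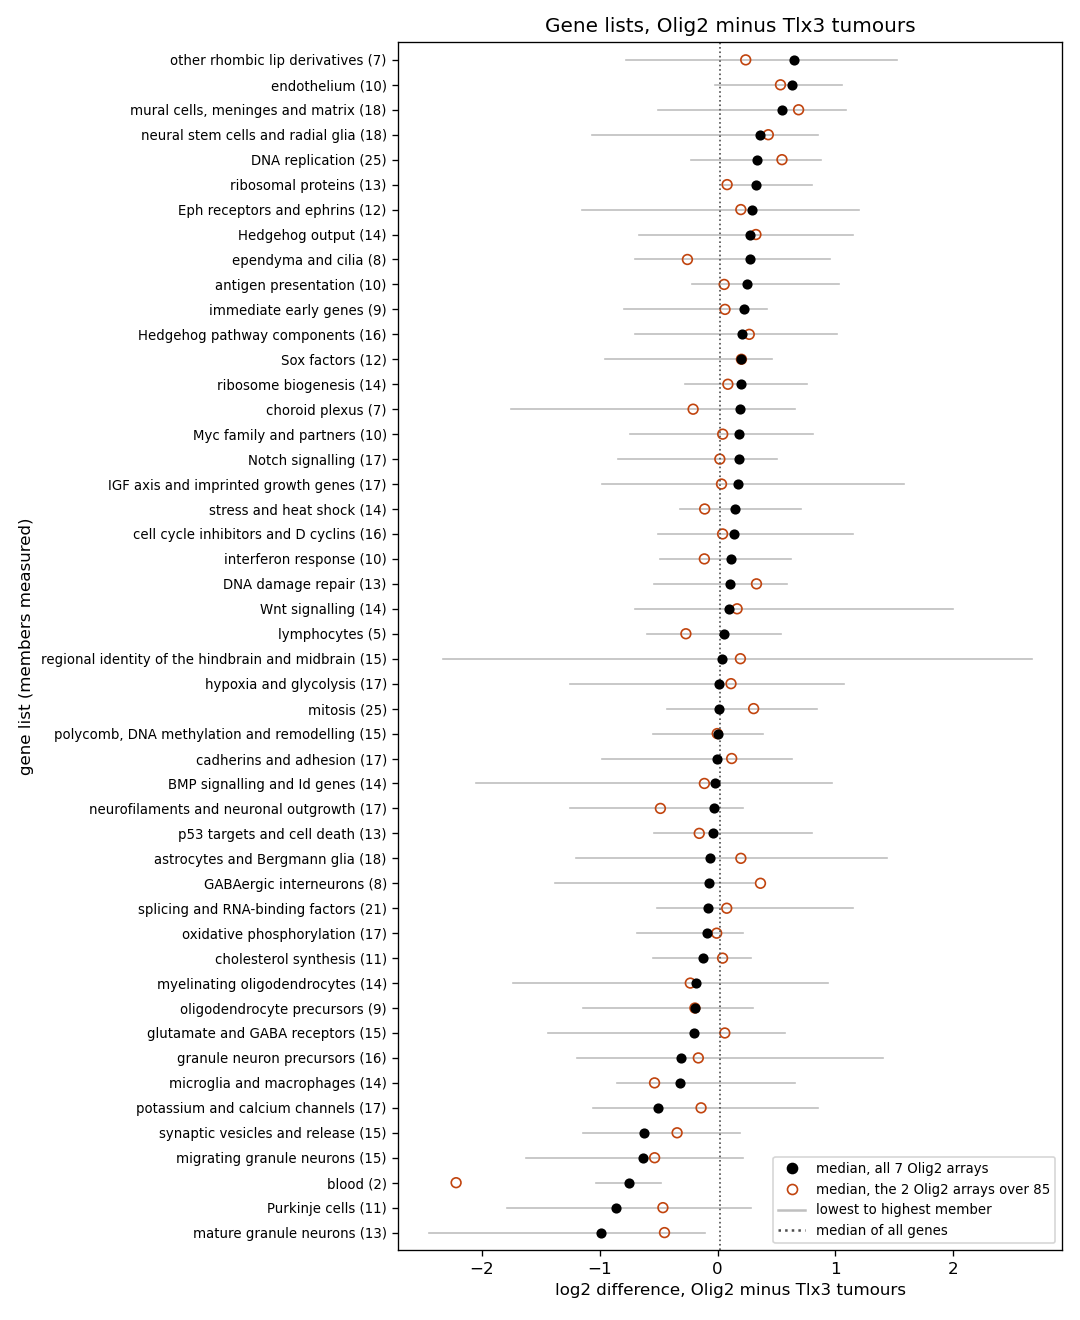
Median log2 difference, Olig2 minus Tlx3 tumours, for each of the 48 gene lists with all 7 Olig2 arrays (filled) and with the 2 bright ones (open), and the range from the lowest to the highest member (grey lines). The dotted line is the median of all genes, 0.02; mature granule neuron genes are lowest at -0.99 and move to -0.45 with the bright arrays.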

How the data were processed

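The authors deposited linear MAS5 signal intensities of 45101 probe sets on 27 arrays, per the submitters' processing notes, of unstated version and scaling target. Each array was rescaled to a 2% trimmed mean of 123.6, and signals under the 20th percentile of the table (10.3) were raised to it before log2. Kept were 30107 probe sets that passed the table's median (45.6) on 3 or more arrays, and the one with the highest mean stood for each of 13527 genes, so other transcripts can differ. Probes were named from the platform annotation (34958 with 1 gene, 932 with several, 9211 unnamed here).

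A mean per group was fitted over all 6 groups with limma 3.58.1 in R 4.3.3 (trend and robust empirical Bayes, 21 residual degrees of freedom), Olig2 minus Tlx3, two-sided, adjusted by Benjamini-Hochberg over all genes and called under 0.05. Intervals are 95% limits of that fit, and differences with the bright Olig2 arrays are of group means.

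Members, lists and tests were chosen with earlier results of these data known. Named were the driver, lineage and pathway genes, called genes with groups apart (up to 20 in each direction) and each list's called or extreme members. Necab2, Gm33409, En1, En2, Hoxb2, Cdh5, Fat2, Islr2, Mdk, Zic1, Mycn, Pdlim3, Gabra6, Dcx, Mcm3 and Mki67 were added after their values were seen. Alternatives changed scaling, floor, filter, probe set choice, arrays, moderation, weights and covariates.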

Additional observations from a re-analysis of the deposited data

Results flagged for a closer look

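Of 137 sets of 7 Olig2 values examined, for the named genes and the array measures, 4 held an Olig2 tumour far from the other 6 by Dixon's test. That is a smaller share than the about 1 in 20 that chance gives. Meis2, a homeobox factor, stood at 8.56 in the fourth Olig2 tumour, while the others ran from 3.82 to 5.48. Otx1 stood at 6.56 in the seventh, against 3.37 to 4.24 in the others, whose spread is narrowed by ties at the floor of 3.37. Gdf10, a BMP-like ligand of Bergmann glia, was low in the fourth at 5.30, against 6.84 to 7.67, and Gar1, a protein of small nucleolar ribonucleoproteins, was low in the second at 7.998, against 8.693 to 9.216. None of these 4 genes was called between the groups.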

How the results depend on the processing

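The main counts were 7 genes higher and 20 lower in Olig2 tumours. Without rescaling they were 0 and 6063 (4 and 8160 at an unadjusted p of 0.05), with the median of all genes at -1.02. Centring on the array median in place of rescaling, an alternative chosen after seeing the data, gave 12 and 15, and quantile normalization 2 and 9. A mean over probe sets gave 3 and 4, a filter on 7 arrays 13 and 30, and limma without trend or robust fit 12 and 18. A variance for each group gave 98 and 197, and a weight for each array 204 and 358. With the 3' to 5' ratio as a covariate the counts were 43 and 80, and with brightness as a covariate 1 (Gmps) and 0 (346 and 395 at an unadjusted p of 0.05). Without the arrays of high 3' to 5' ratio they were 29 and 65, and without arrays under 85 they were 3 and 1. The 10 arrays alone gave 0 and 0, and the 19 SmoM2 arrays 0 and 3. Leaving out each array in turn gave 0 to 68 higher and 0 to 147 lower. The cause of these changes was not tested. Other floors, an offset of 16 and no filter gave 6 to 10 higher and 15 to 27 lower.

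A replicate block on the 10 arrays gave 1 higher and 1 lower gene, Gdpd3 and Ube2ql1, and kept 0 of the 27 calls. Same-numbered arrays correlated at -0.04, 0.21 and 0.21 in their deviations from the group means, the first Tlx3 array correlated best with another number, and so the numbers were not taken as pairs.

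Without rescaling, where differences moved by a median of -1.02, many values above 0 turned, among them Plekhn1 (-0.12), Necab2 (-0.018), Rps27 (-1.02) and Zic1 (-0.96). Relative to that median Plekhn1 (0.90), Necab2 (1.00) and Zic1 (0.06) stayed above 0. Quantile normalization turned Zic1 (-0.30), Rps27 (-0.028) and Sez6 (0.10), and a floor at the 10th percentile turned Sez6 (0.24), whose probe set changed in both. The other 24 called genes kept their sign under all 29 alternatives. Their groups did not overlap, so leaving out arrays or changing the variance model could not change that sign. Of those 29 alternatives, Pag1 was called in 24, Gmps, Nexmif, Nol4l and Pxk in 22 each, Ccnd1 and Kcnk1 in 20 and Sez6 in 8. These tallies include the fit without rescaling, with 0 genes higher and 6063 lower, so they do not compare higher with lower genes evenly. Signals near the floor cannot be told from background, which limits Ackr2, Nmur1 and Sez6.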
